A study of Mus musculus with 50 samples.

Results

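The 10 genes described here encode transcription factors of the naive pluripotency network of mouse embryonic stem cells (ESCs). They were taken as a fixed list: *Pou5f1*, *Sox2*, *Nanog*, *Klf2*, *Klf4*, *Klf5*, *Esrrb*, *Zfp42*, *Tfcp2l1* and *Prdm14*. All 10 were among the 18055 genes of the normalized count table and among the 13872 genes tested. Their RNA was followed in 8 SMART-seq2 libraries, and the histone marks and open chromatin at their loci in peak lists. The study altered the PRC2 complex, whose EZH1 and EZH2 subunits methylate lysine 27 of histone H3 (H3K27). The comparisons ask whether ESCs that lack PRC2, or its enzyme activity alone, differ in the expression and chromatin of these genes.

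The parental cells were wild-type E14 ESCs (WT), kept on gelatin in serum medium with LIF and the inhibitor pair known as 2i. *Ezh2* KO ESCs carry a deletion of *Ezh2*, and *Ezh1/2* dKO ESCs lack *Ezh1* and *Ezh2*. *Ezh2* Y726D ESCs carry a point mutation of the catalytic domain of EZH2 in cells that also lack *Ezh1*, and *Ezh2* R685C ESCs carry another EZH2 point mutation in the same *Ezh1* KO background. The SUZ12 and H3K27me3 samples of the Y726D line are labelled without the *Ezh1* KO and were taken as the same line. A further sample is *Ezh1/2* dKO ESCs transfected with a vector for HA-tagged human EZH1 and collected after puromycin selection. The mutant lines were made by CRISPR/Cas9, and the study describes its samples as biological replicates without saying whether the 2 RNA libraries of a line came from separate cultures or clones. P-values therefore measure the spread between these libraries, and a genotype cannot be told apart from the cells it was isolated in. RNA-seq covered WT and 3 mutant lines (*Ezh2* KO, *Ezh1/2* dKO, *Ezh2* Y726D), and each combination of line and chromatin target had 1 library, so that differences between peak lists have no replicate check.

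POU5F1, SOX2 and NANOG form the core of the network: they bind together at the control regions of many ESC genes, their own genes included. KLF2, KLF4, KLF5, ESRRB, TFCP2L1 and PRDM14 hold the cells in the naive state, in part as targets of LIF and STAT3 signalling and of the inhibitors in the medium. ZFP42, also called REX1, is a zinc finger protein widely used as a marker of that state. H3K27ac marks active promoters and enhancers, ATAC-seq regions are open chromatin, H3K27me3 with the PRC2 subunit SUZ12 marks Polycomb-repressed genes, and H3K27me1 is found over the bodies of transcribed genes.

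Promoter sequences of the members that the chromatin results turn on are shown first. RefSeq sequences of its GRCm38.p6 table were matched for 8 of the 10 members, *Klf5* and *Prdm14* being the others. The 250 bases before each start site were found once in mm9, the build of the peak lists, and are given 5′ to 3′ on the strand of the gene. Capitals mark letters of 5 searched motifs, on either strand: the octamer core bound by POU factors (atgcaaa), a SOX core (cattgt), a nuclear receptor half-site (aggtca), a GC box as bound by KLF and SP factors (gggcgg) and a STAT site (ttcnnngaa). No motif of these contains another. *Nanog* and *Zfp42* are shown for their octamers, *Pou5f1* for the strongest promoter acetylation among the members, and a pair of *Esrrb* starts because they differ in their marks.
Nanog, chr6:122657257-122657506, plus strand: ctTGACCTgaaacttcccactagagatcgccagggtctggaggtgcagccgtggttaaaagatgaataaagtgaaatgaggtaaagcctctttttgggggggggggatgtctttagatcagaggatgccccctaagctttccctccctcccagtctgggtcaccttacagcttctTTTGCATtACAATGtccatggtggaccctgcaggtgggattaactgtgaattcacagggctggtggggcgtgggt
Zfp42, chr8:44392364-44392613, minus strand: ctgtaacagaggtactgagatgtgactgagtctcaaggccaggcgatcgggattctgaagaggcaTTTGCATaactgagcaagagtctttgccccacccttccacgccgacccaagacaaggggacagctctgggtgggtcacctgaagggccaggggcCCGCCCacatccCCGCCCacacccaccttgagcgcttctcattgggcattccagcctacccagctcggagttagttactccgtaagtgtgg
Pou5f1, chr17:35642727-35642976, plus strand: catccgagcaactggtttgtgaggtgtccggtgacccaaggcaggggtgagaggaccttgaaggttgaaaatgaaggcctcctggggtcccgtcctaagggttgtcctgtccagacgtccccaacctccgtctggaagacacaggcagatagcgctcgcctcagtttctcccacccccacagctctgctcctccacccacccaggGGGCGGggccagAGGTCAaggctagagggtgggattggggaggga
Esrrb first start, chr12:87701817-87702066, plus strand: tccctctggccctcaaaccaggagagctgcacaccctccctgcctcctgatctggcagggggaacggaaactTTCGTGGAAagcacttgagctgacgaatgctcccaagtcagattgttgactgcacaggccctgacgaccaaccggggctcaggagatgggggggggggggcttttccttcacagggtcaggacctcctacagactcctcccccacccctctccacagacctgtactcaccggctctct
Esrrb second start, chr12:87762344-87762593, plus strand: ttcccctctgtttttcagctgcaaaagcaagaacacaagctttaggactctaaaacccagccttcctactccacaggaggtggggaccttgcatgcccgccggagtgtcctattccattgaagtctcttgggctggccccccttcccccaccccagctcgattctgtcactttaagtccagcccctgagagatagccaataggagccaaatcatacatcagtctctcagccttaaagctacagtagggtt

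The *Nanog* sequence held the octamer at positions -75 to -69 and the SOX core at -67 to -62 before the start site, the neighbouring pair at which POU5F1 and SOX2 are known to bind this promoter. The octamer was also found at -185 to -179 in *Zfp42* and at -99 to -93 in *Sox2*. Among all 32851 promoters of the same length in the RefSeq table, 4.12% held the octamer core, 10.7% the SOX core and 4607 of them the half-site, 32.7% the GC box and 7.02% the STAT pattern. *Pou5f1* held the half-site at -33 to -28 and a GC box at -45 to -40. The first *Esrrb* start held a STAT pattern at -178 to -170, and none of the 5 motifs was in the window of the second. A match is a description of letters and not of a bound site.

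Libraries held 3604123 to 5181553 reads, and replicates correlated with r of 0.953 to 0.978. The altered genes followed the labels: *Ezh2* was at 597.6 and 545.9 normalized counts in WT, 1.0 and 1.0 in *Ezh2* KO, 0.8 and 1.8 in *Ezh1/2* dKO, and 421.7 and 613.1 in *Ezh2* Y726D. *Ezh1* was at 226.8 to 378.3 in WT and *Ezh2* KO and at 24.1 or less in the other 4 libraries. On chromosome 12, where *Esrrb* lies, *Ezh2* Y726D libraries stood apart, with a median log2 fold change against WT of -0.30 over 448 genes and 0.00 over the genes of the other chromosomes. The 5 tested genes of chromosome Y, where no member lies, had a median of -7.77 in the same comparison.

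All 10 members were expressed in all 8 libraries. Normalized counts were divided by exon length so that genes could be ordered. *Zfp42* was highest, with a mean of 1112.1 normalized counts per kb of exon and a range of 982.1 to 1319.2, at percentile 99.4 of the 13161 tested genes placed on mm9. *Pou5f1* followed at 690.1 (range 588.6 to 849.1, percentile 97.1) and *Tfcp2l1* at 505.4 (419.6 to 579.6, percentile 94.1), and the ranges of these 3 genes did not overlap. *Nanog* at 399.0 and *Esrrb* at 376.1 overlapped each other in range, and each also overlapped *Tfcp2l1*. *Sox2*, at 263.9 (230.8 to 294.5), was below all values of *Esrrb*. From *Sox2* downward each gene overlapped the next: *Klf5* had a mean of 236.5, *Klf4* of 180.4, *Prdm14* of 163.3 and *Klf2* of 105.2 normalized counts per kb. *Klf2*, the lowest member, was still at percentile 65.7. *Tfcp2l1* also had the highest mean normalized count of these 13161 genes, which its 9269 bp of exon enter. Reads with the same position had been removed before counting, which lowers dense genes most: *Zfp42* reached 1.232 reads per base of exon, and 165 of 13161 genes exceeded 1.

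**Figure D1:**
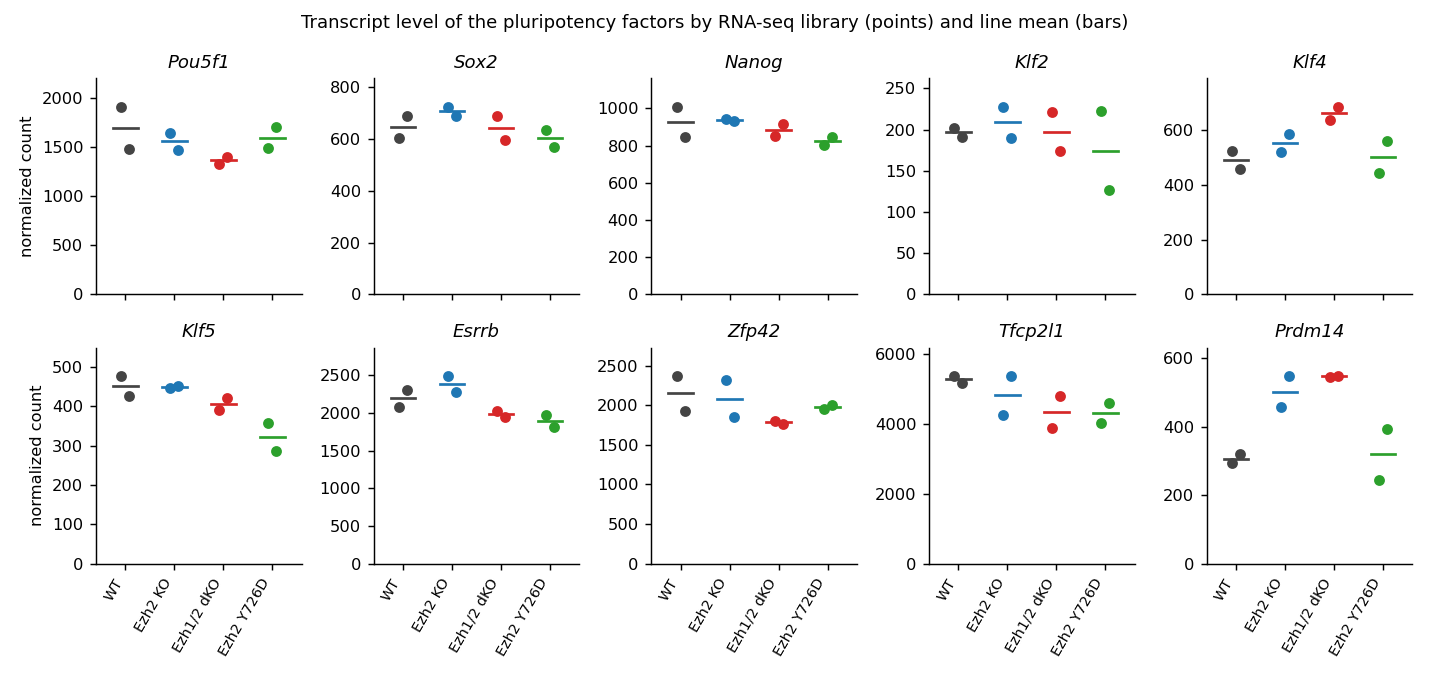
Normalized count (linear axis from 0, one panel per member) in each of the 8 libraries (points), with the mean of the 2 libraries of each line (bars). *Prdm14* has the *Ezh2* KO and *Ezh1/2* dKO libraries, 455.9 to 548.6, above the WT and *Ezh2* Y726D libraries, 244.3 to 393.8.

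The core factors differed little among the 4 lines. *Pou5f1*, the POU factor without which ESCs leave pluripotency, was at 1915.6 and 1485.6 normalized counts in WT, 1649.9 and 1471.8 in *Ezh2* KO, 1327.9 and 1404.7 in *Ezh1/2* dKO, and 1496.1 and 1702.7 in *Ezh2* Y726D. The *Ezh1/2* dKO libraries lay below the 6 others, and the other 3 lines overlapped. The log2 fold change in *Ezh1/2* dKO against WT was -0.30 (SE 0.15, limma adjusted p = 0.304). *Sox2*, the partner of POU5F1 on DNA, was at 604.3 and 687.5 normalized counts in WT, 723.5 and 686.1 in *Ezh2* KO, 688.3 and 594.9 in *Ezh1/2* dKO, and 634.8 and 567.2 in *Ezh2* Y726D. *Nanog*, a homeobox factor that lets ESCs self-renew without LIF when it is abundant, was at 1009.8 and 846.3 in WT, 942.0 and 932.8 in *Ezh2* KO, 853.9 and 918.1 in *Ezh1/2* dKO, and 806.0 and 848.0 in *Ezh2* Y726D. Both genes overlapped WT in every mutant line, and their log2 fold changes against WT lay between -0.16 and 0.13 with SEs of 0.13 for *Nanog* and 0.15 for *Sox2*. In these bulk libraries, fewer cells expressing a gene and less RNA per cell cannot be told apart.

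Among the KLF factors, zinc finger proteins that can partly replace each other in ESCs, *Klf4* and *Klf5* showed the wider differences. *Klf4* was at 524.3 and 457.3 normalized counts in WT, 519.6 and 586.4 in *Ezh2* KO, 638.0 and 685.5 in *Ezh1/2* dKO, and 444.0 and 561.6 in *Ezh2* Y726D. The *Ezh1/2* dKO libraries were above the 6 others, with a log2 fold change against WT of 0.43 (SE 0.16, limma adjusted p = 0.204), which did not pass the test. *Klf5* was at 477.6 and 425.6 in WT, 446.4 and 450.9 in *Ezh2* KO, 389.9 and 421.8 in *Ezh1/2* dKO, and 356.6 and 287.5 in *Ezh2* Y726D. The *Ezh2* Y726D libraries were below the 6 others, with a log2 fold change against WT of -0.49 (SE 0.16, limma adjusted p = 0.196) and against *Ezh2* KO of -0.49 (adjusted p = 0.181). Without *Ezh2* Y726D replicate 1 the latter was -0.64 with an adjusted p of 0.0864, short of 2-fold. *Klf2* ranged from 126.4 to 227.9 normalized counts over the 8 libraries, overlapped in every pair of lines and had the largest SE of the members, 0.28.

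*Esrrb*, an orphan nuclear receptor that is a main effector of GSK3 inhibition in ESCs, was at 2082.4 and 2306.9 normalized counts in WT, 2496.8 and 2279.7 in *Ezh2* KO, 2033.5 and 1947.2 in *Ezh1/2* dKO, and 1968.6 and 1812.3 in *Ezh2* Y726D. The lines without *Ezh1* were below WT and *Ezh2* KO in all libraries. The log2 fold change of *Ezh2* Y726D was -0.21 against WT (limma adjusted p = 0.464) and -0.34 against *Ezh2* KO (adjusted p = 0.189), and that of *Ezh1/2* dKO against *Ezh2* KO was -0.26 (adjusted p = 0.371), with an SE of 0.12 each. When only the 4 libraries of the last pair entered the test, its adjusted p was 0.0647. In *Ezh2* Y726D, the 48 tested genes within 2 Mb of *Esrrb* had a median log2 fold change of -0.40 against WT with 43 of 48 lower, and of -0.28 against *Ezh2* KO with 38 lower, while in *Ezh1/2* dKO against WT the median was 0.02. Chromosome 12 also held 3.36% of ATAC-seq regions in *Ezh2* Y726D and 4.49 to 4.70% in the other 3 lines, and 2.39% of H3K27ac peaks against 3.55 to 3.81%. Their part in the *Esrrb* value was not tested.

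*Tfcp2l1*, a target of LIF and STAT3 signalling, was at 5372.0 and 5172.3 normalized counts in WT, 4262.7 and 5360.7 in *Ezh2* KO, 3888.9 and 4789.4 in *Ezh1/2* dKO, and 4025.5 and 4604.7 in *Ezh2* Y726D. *Zfp42* was at 2374.5 and 1931.4 in WT, 2319.0 and 1852.1 in *Ezh2* KO, 1804.3 and 1767.9 in *Ezh1/2* dKO, and 1958.8 and 2005.9 in *Ezh2* Y726D. Each gene was lower in both *Ezh1/2* dKO libraries than in either WT library, by log2 fold changes of -0.29 (*Tfcp2l1*, SE 0.15, limma adjusted p = 0.321) and -0.26 (*Zfp42*, SE 0.14, adjusted p = 0.360), which did not pass the test.

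*Prdm14* had the largest log2 fold change of the members in 4 of the 6 comparisons of lines. It encodes a PR-domain regulator that keeps FGF signalling and de novo DNA methyltransferase genes low in ESCs. It was at 294.8 and 318.7 normalized counts in WT, 455.9 and 548.6 in *Ezh2* KO, 545.7 and 547.8 in *Ezh1/2* dKO, and 244.3 and 393.8 in *Ezh2* Y726D. The *Ezh2* KO and *Ezh1/2* dKO libraries all lay above the WT and *Ezh2* Y726D libraries, and *Ezh2* Y726D overlapped WT. The difference from WT was 1.63-fold in *Ezh2* KO (log2 fold change 0.70, SE 0.22, limma adjusted p = 0.335) and 1.78-fold in *Ezh1/2* dKO (0.83, SE 0.22, adjusted p = 0.0907). The latter passed the adjusted p of 0.1, as 4.09% of all tested genes did in that direction, but not the 2-fold limit that a call also required. It was above 0.1 without either WT, either *Ezh2* KO or either *Ezh1/2* dKO library, in a range of 0.120 to 0.419, and was 0.0765 with edgeR and 0.0239 with DESeq2 on the recovered reads.

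*Ezh2* Y726D differed from WT in *Prdm14* by a log2 fold change of 0.02 (limma adjusted p = 0.986), from *Ezh1/2* dKO by -0.82 (adjusted p = 0.142) and from *Ezh2* KO by -0.69 (adjusted p = 0.165). *Ezh2* Y726D replicate 2 decides the last 2 values: without it they were -1.16 (adjusted p = 0.0391) and -1.03 (adjusted p = 0.0575), past the limits of a call. These comparisons share libraries, so their values are not independent of each other.

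In a moderated F test among the 4 lines, *Prdm14* was the only member with an adjusted p under 0.1 (limma, 0.0890), while 7.60% of all tested genes passed. The genes whose log2 values followed *Prdm14* most closely over the 8 libraries were *1700101E01Rik* (r = 0.961), *Mcfd2* (0.955) and *Msc* (0.953), out of 13871 genes. Among the members *Klf4* was closest (r = 0.866), and the other 8 had r between -0.484 and 0.253. These correlations are descriptions over libraries that fall into 4 lines.

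Counted over the list, 0 of 10 members were called in any of the 6 comparisons by limma, at an adjusted p under 0.1 and at least a 2-fold change. Among all tested genes the share called was 0.404% in *Ezh2* KO against WT, 4.02% in *Ezh1/2* dKO against WT, 2.72% in *Ezh2* Y726D against WT, 3.58% in *Ezh1/2* dKO against *Ezh2* KO, 1.68% in *Ezh2* Y726D against *Ezh1/2* dKO and 3.53% in *Ezh2* Y726D against *Ezh2* KO. At these shares a list of 10 genes would hold few calls or none. These shares vary with the settings of the test and with the libraries that enter it, as given in the closing section. At an unadjusted p under 0.05 the members passing numbered 1, 2, 1, 1, 2 and 3 in the same order, where 8.83%, 18.6%, 14.3%, 13.4%, 13.1% and 15.8% of all tested genes passed, and edgeR and DESeq2 also called 0 of them. Leaving out *Prdm14*, the log2 fold changes against WT lay between -0.14 and 0.17 in *Ezh2* KO, between -0.30 and 0.43 in *Ezh1/2* dKO and between -0.49 and 0.03 in *Ezh2* Y726D. The median absolute log2 fold change of the 10 members was 0.12, 0.21 and 0.14 in these lines against WT, and 0.22, 0.29 and 0.25 over all tested genes. SEs of single members were 0.12 to 0.28, so differences of the size seen in most members were not detectable with 2 libraries per line.

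**Figure D2:**
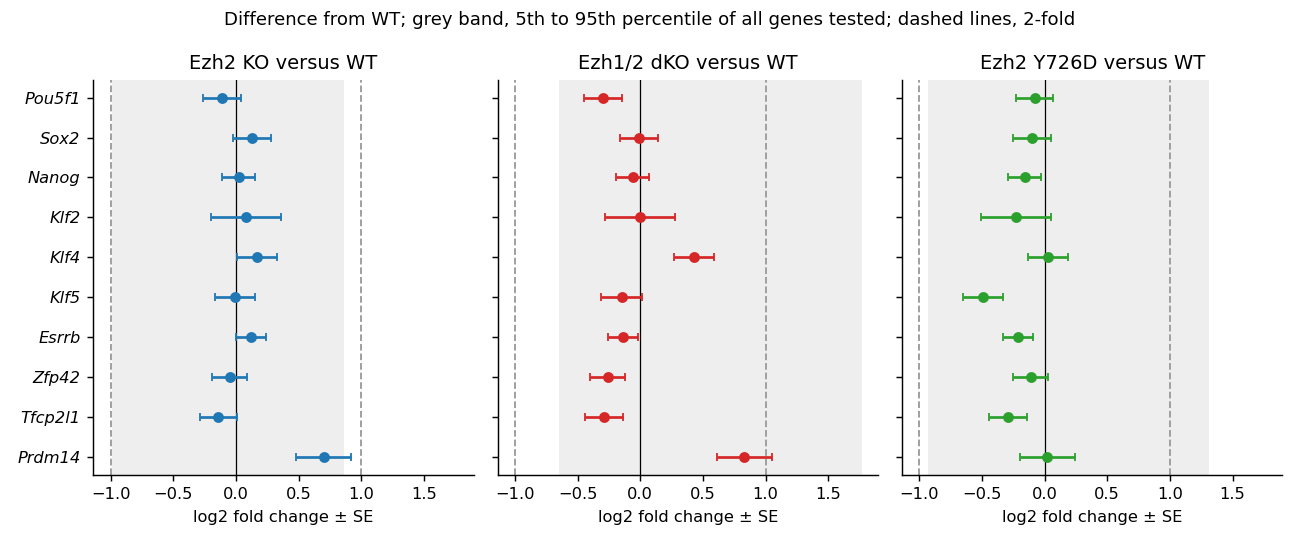
Log2 fold change of each member (points, with SE as error bars) in *Ezh2* KO, *Ezh1/2* dKO and the *Ezh2* Y726D line against WT, with the 5th to 95th percentile of all tested genes as a grey band and 2-fold as dashed lines. *Prdm14* lies at 0.70 and 0.83 in the first pair of panels and at 0.02 in the last, and all members are inside the dashed lines.

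The direction of the small differences was uneven. In *Ezh1/2* dKO against WT, 2 members had both libraries above WT (28.0% of all genes did) and 5 had both below (24.5% of all genes), the latter being *Pou5f1*, *Klf5*, *Esrrb*, *Zfp42* and *Tfcp2l1*. In *Ezh2* KO against WT the counts were 1 higher (18.0% of all genes) and 0 lower (17.6%), and in *Ezh2* Y726D against WT 0 higher (19.0%) and 3 lower (18.1%), namely *Klf5*, *Esrrb* and *Tfcp2l1*. In *Ezh1/2* dKO against *Ezh2* KO 1 was higher (26.6% of all genes) and 5 lower (26.9%), in *Ezh2* Y726D against *Ezh1/2* dKO 2 were higher (22.1%) and 4 lower (25.2%), and in *Ezh2* Y726D against *Ezh2* KO 0 were higher (22.2%) and 5 lower (22.1%). The median log2 fold change of the members against WT was 0.05 in *Ezh2* KO, where that of all genes was -0.01. It was -0.10 in *Ezh1/2* dKO (0.01 over all genes) and -0.14 in *Ezh2* Y726D (-0.01). With quantile normalization the *Ezh1/2* dKO median became 0.05, so its sign depends on the scaling. The summed normalized count of the 10 members was 13823.3 to 14856.7 in WT, 14043.7 to 14358.7 in *Ezh2* KO, 12391.3 to 13251.3 in *Ezh1/2* dKO and 12156.8 to 12910.1 in *Ezh2* Y726D.

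Other genes of the same cell state were read from lists. Of 5 genes of LIF and STAT3 signalling (*Lifr*, *Il6st*, *Jak1*, *Stat3* and *Socs3*), 0 were called in any comparison by limma, edgeR or DESeq2. At an unadjusted p under 0.05 (limma), 0 of them passed in *Ezh2* KO against WT, and 2 passed in each of *Ezh1/2* dKO and *Ezh2* Y726D, where 8.83%, 18.6% and 14.3% of all tested genes did. The median log2 fold changes of the list were 0.05, 0.01 and 0.20. Of 20 other naive or general pluripotency genes, with medians of -0.09, -0.29 and -0.04, 1 was called: *Dppa3*, also known as Stella, a maternal factor that protects DNA methylation in the early embryo. *Dppa3* was at 176.1 and 105.9 normalized counts in WT, 170.4 and 114.2 in *Ezh2* KO, 282.7 and 413.8 in *Ezh1/2* dKO, and 21.4 and 20.1 in *Ezh2* Y726D. It rose in *Ezh1/2* dKO against WT (log2 fold change 1.32, SE 0.33, limma adjusted p = 0.0775) and fell in *Ezh2* Y726D (-2.66, SE 0.33, adjusted p = 0.0113), and *Ezh2* Y726D differed from *Ezh1/2* dKO by -3.98 (adjusted p = 0.0015). The rise was no longer called without WT replicate 2, *Ezh2* KO replicate 1 or either *Ezh1/2* dKO replicate, with quantile normalization or with no filter on low values.

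Of 13 formative and primed pluripotency genes, those of the state that follows naive pluripotency, 0 were called against WT by limma, with 4, 2 and 3 at an unadjusted p under 0.05 in the order *Ezh2* KO, *Ezh1/2* dKO, *Ezh2* Y726D (8.83%, 18.6% and 14.3% of all tested genes) and list medians of -0.59, -0.09 and 0.08. DESeq2 called 1 of them in *Ezh2* KO and edgeR 0. Against *Ezh2* KO, limma called 1 of the 13 in *Ezh1/2* dKO, *Pou3f1*, a POU factor of the epiblast (3.58% of all tested genes were called). In *Ezh2* Y726D it called 3 (3.53% of all tested genes): *Pou3f1*, the Wnt effector *Lef1* and the de novo DNA methyltransferase *Dnmt3b*. In these comparisons edgeR called 1 and 3 of the list, and DESeq2 called 3 and 5. *Pou3f1* was at 8.0 and 2.9 normalized counts in WT, 13.2 and 12.4 in *Ezh1/2* dKO and 10.7 and 14.5 in *Ezh2* Y726D, and had 0 reads in both *Ezh2* KO libraries. It was not called against WT in *Ezh1/2* dKO (limma adjusted p = 0.337) or *Ezh2* Y726D (0.465). Against a floor of 3 reads per *Ezh2* KO library it was at least 4.24-fold higher in *Ezh1/2* dKO and at least 4.18-fold higher in *Ezh2* Y726D. *Dnmt3b* was at 1011.2 and 489.1 in WT, 316.8 and 271.9 in *Ezh2* KO, 442.6 and 412.9 in *Ezh1/2* dKO, and 641.0 and 1238.4 in *Ezh2* Y726D, a log2 fold change of 1.60 between the last line and *Ezh2* KO (SE 0.36, limma adjusted p = 0.0573).

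Markers of other cells that ESC cultures can hold were summed in each library. The primitive endoderm and neural sums overlapped WT in every mutant line, and the mesoderm and fibroblast sums in none. Summed primitive endoderm markers (8 genes, 5 tested) were at 302.8 to 457.3 normalized counts in WT, 258.2 to 616.4 in *Ezh2* KO, 441.8 to 681.9 in *Ezh1/2* dKO and 300.5 to 813.3 in *Ezh2* Y726D. *Dab2* and *Gata4* were called higher in *Ezh1/2* dKO against WT, and *Sox17* and *Foxa2* were at 0 in *Ezh2* KO and *Ezh2* Y726D. Trophectoderm markers (7 genes, 5 tested) were at 183.9 to 362.8 in WT, 227.9 to 286.4 in *Ezh2* KO, 396.5 to 499.9 in *Ezh1/2* dKO and 275.5 to 854.7 in *Ezh2* Y726D, with *Gata3* called higher in the last 2 lines against WT, in *Ezh2* Y726D not with edgeR. The 6 mesoderm markers listed summed to 41.4 to 43.3 in WT, 16.7 to 24.2 in *Ezh2* KO, 55.2 to 110.1 in *Ezh1/2* dKO and 62.4 to 173.4 in *Ezh2* Y726D, and *Kdr* was called in the last line against *Ezh2* KO. The 4 neural markers listed summed to 536.3 to 1326.0 in WT, 523.8 to 842.8 in *Ezh2* KO, 831.7 to 1079.7 in *Ezh1/2* dKO and 537.6 to 907.3 in *Ezh2* Y726D, with *Nes* called in *Ezh1/2* dKO against *Ezh2* KO by limma and not by edgeR. The 4 fibroblast markers listed summed to 4.8 to 12.0 in WT, where *Col1a2* and *Dcn* were at 0, and to 14.5 to 16.7 in *Ezh2* KO. They summed to 100.6 to 115.4 in *Ezh1/2* dKO and 86.1 to 88.3 in *Ezh2* Y726D. *Thy1*, the gene of this list that passed the filter, was called higher in the last 2 lines. It was at 88.2 and 101.2 in *Ezh1/2* dKO and 84.7 and 76.1 in *Ezh2* Y726D, so the higher sums are mostly this 1 gene. *Dcn* was at 0 in *Ezh2* Y726D too. The part of such cells in the members' values was not tested.

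H3K27ac was compared next, in peak lists of 4 mutant lines, here in the order *Ezh2* KO, *Ezh1/2* dKO, then *Ezh2* Y726D and *Ezh2* R685C. In all 4 lists, all 10 members had a peak within 5 kb of an annotated start site, where 58.2%, 43.6%, 70.0% and 70.5% of all tested genes had one. At a stricter p of at most 1e-20, 9 members still had a peak in *Ezh2* KO (28.7% of all genes), *Ezh1/2* dKO (14.4%) and *Ezh2* R685C (51.6%), *Prdm14* being the exception, and 10 in *Ezh2* Y726D (37.8%). The lists held 25483, 17618, 40829 and 41185 peaks and the reads behind them are unknown, so strength is given as -log10 p, the peak caller's measure against the background of the library, with its percentile among all tested genes of the same list.

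The strongest peak near *Pou5f1* had a -log10 p of 98.0 in *Ezh2* KO, 69.3 in *Ezh1/2* dKO, 110.0 in *Ezh2* Y726D and 136.5 in *Ezh2* R685C, at percentile 99.9 or above in each list. It covered the *Pou5f1* sequence printed above in all 4 lists. *Nanog* (54.6, 52.5, 82.0 and 91.1) and *Sox2* (59.9, 54.6, 80.8 and 79.4) lay between percentiles 97.3 and 99.6. In *Ezh1/2* dKO the nearest peaks at these genes were 187 and 267 bp from a start site and left their promoter windows uncovered. A peak overlapped the *Nanog* sequence printed above in *Ezh2* KO, *Ezh2* Y726D and *Ezh2* R685C, and in the last 2 it lay on the start. The *Zfp42* sequence was overlapped in *Ezh1/2* dKO, *Ezh2* Y726D and *Ezh2* R685C, by a peak on the start itself in *Ezh2* R685C alone. The nearest peak was 83 bp from the start in *Ezh2* Y726D. In *Ezh1/2* dKO it was 240 bp away, so that only the upstream end of the sequence was reached.

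*Prdm14* had the weakest start-site acetylation of the members in *Ezh2* KO (-log10 p 19.0), *Ezh1/2* dKO (15.4) and *Ezh2* R685C (16.0), at percentiles 69.0, 75.6 and 40.8. In *Ezh2* Y726D it reached 32.4, at percentile 83.5, while the *Prdm14* RNA of that line was below that of *Ezh2* KO and *Ezh1/2* dKO. *Klf4* ranged from percentile 59.7 in *Ezh2* R685C to 93.0 in *Ezh2* Y726D, and *Klf5* from 72.9 in *Ezh2* Y726D, the line with its lowest RNA, to 95.1 in *Ezh1/2* dKO. *Klf2*, *Esrrb* and *Zfp42* were at percentile 90.4 or above in the 4 lists, and *Tfcp2l1* ranged from 83.7 to 99.7.

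Beyond the start sites, the median member had more acetylated regions than the median gene. Between 5 and 120 kb from a start site, the median number of H3K27ac peaks per member was 11 in *Ezh2* KO, 8 in *Ezh1/2* dKO, 17 in *Ezh2* Y726D and 16 in *Ezh2* R685C, and over all genes 4, 3, 7 and 7. Distance was taken to the start sites of the gene itself only, so peaks at promoters of neighbouring genes are included. Within *Ezh1/2* dKO the lowest count was 3 at *Zfp42*, and within *Ezh2* Y726D 6 at *Tfcp2l1*, at or below the median of all genes in these lists. Within *Ezh2* KO it was 5 at *Zfp42*, above that median. The strongest distal peak of *Sox2*, downstream of which a distal ESC enhancer is known, was centred 109.1, 109.2, 108.2 and 109.7 kb downstream in these lists, with -log10 p of 64.0, 55.9, 73.7 and 120.0. That of *Klf4* was centred 55.8, 58.5, 58.6 and 58.6 kb downstream, with 50.8, 44.0, 90.4 and 109.4. The *Sox2* position recurred within 3 kb in the 4 lists. The *Klf4* peak spanned 54.8 to 56.9 kb in *Ezh2* KO and began at 57.3 to 57.4 kb in the other lists, so it was not the same peak in *Ezh2* KO. For *Esrrb* the strongest distal peak lay inside the gene, centred 144.1, 142.1, 143.2 and 145.5 kb after the first start, with 76.3, 74.3, 75.1 and 106.5. *Klf2* (13.6 to 16.3 kb downstream) and *Tfcp2l1* (19.5 to 21.0 kb, inside the gene) also had it at nearby places in the 4 lists. *Nanog* had it 55.9 to 56.7 kb downstream in 3 lists and 99.1 kb upstream in *Ezh2* R685C. Of the 10 members, 4, 4, 5 and 6 lay above percentile 90 of all genes for the strength of this peak, and *Prdm14* lay between 33.3 and 67.1.

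**Figure D3:**
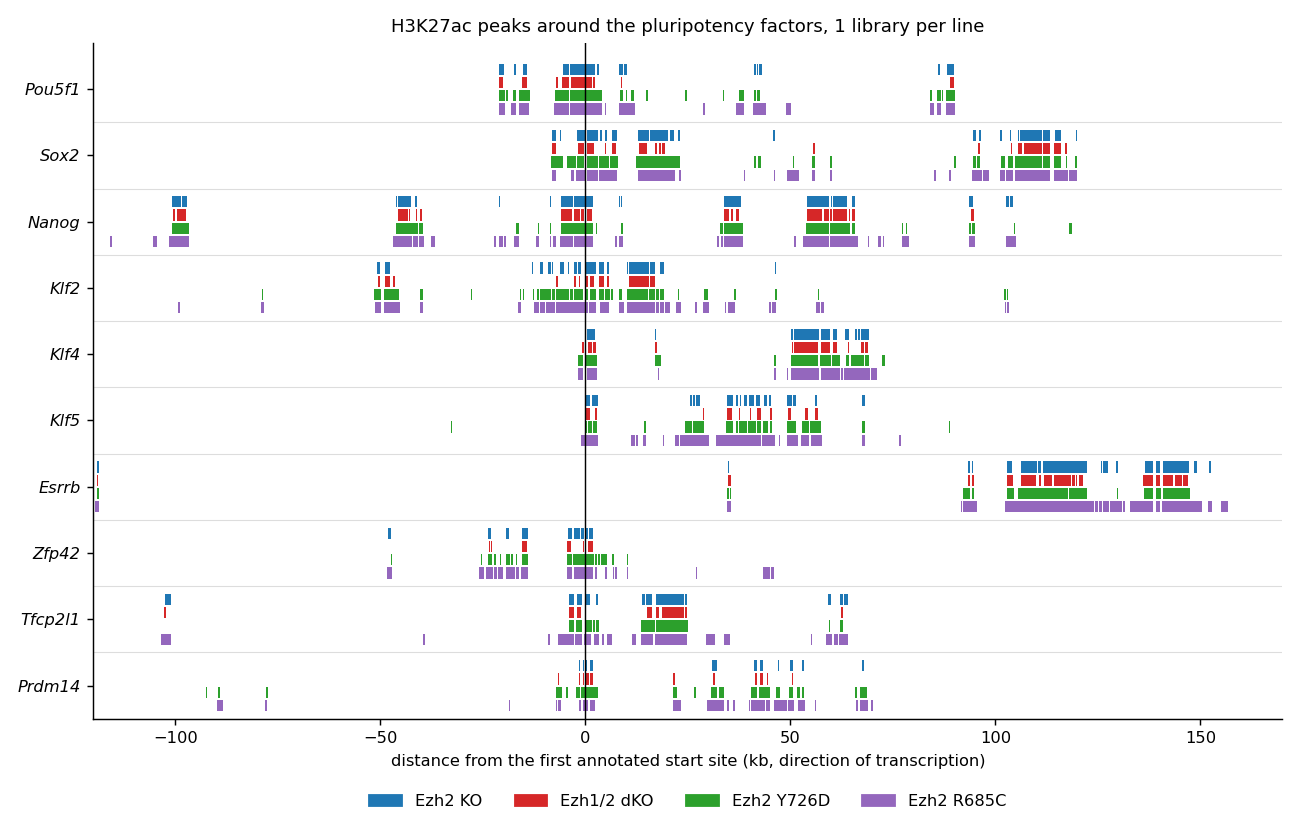
H3K27ac peaks around each member by distance from its first start site in kb, in the direction of transcription, for *Ezh2* KO, *Ezh1/2* dKO, then *Ezh2* Y726D and *Ezh2* R685C (1 library each). All members have peaks near a start site in the 4 lists, and the *Sox2* group centred 108.2 to 109.7 kb downstream recurs in each.

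The ATAC-seq lists were too permissive to separate the members. A region lay within 5 kb of a start site of all 10 members in each of the 4 lines, and of 99.4% of all tested genes in WT and in *Ezh1/2* dKO and 99.5% in *Ezh2* KO and in *Ezh2* Y726D. The -log10 p of the strongest such region, an average over the region, was 1.57 to 3.50 over members and lines. *Nanog* in *Ezh2* KO gave the highest value, 3.50, and in WT it was at 2.44, percentile 83.4 of all tested genes. *Prdm14* was at 2.89 in *Ezh2* KO and 2.02 in *Ezh1/2* dKO, above the 1.79 of WT and the 1.57 of *Ezh2* Y726D, values without a replicate. At a p of at most 1e-10, 0 members kept a region, and of all tested genes 0.0152% to 0.0456% did.

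H3K27me3 was found near the start sites of 1 member, *Esrrb*. It had a peak within 5 kb in WT (18.0% of all genes), *Ezh2* KO (12.7%) and *Ezh2* R685C (22.3%), and 0 members had one in *Ezh2* Y726D (1.07%) or *Ezh1/2* dKO (0.0676%). *Esrrb* (chr12:87702067-87862578, mm9, plus strand) has 4 annotated start sites, the others 60.5, 60.8 and 109.0 kb after the first. The strongest H3K27me3 peak covered the next pair of start sites: from 60.2 to 64.1 kb in WT with a -log10 p of 25.4, from 59.5 to 63.8 kb in *Ezh2* KO with 360.9, and from 59.1 to 62.9 kb in *Ezh2* R685C with 451.2. These values compare a peak with the background of its own library and are not levels of the mark across lines. WT had further H3K27me3 peaks between 6.9 and 65.6 kb with -log10 p of 10.2 to 21.1.

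SUZ12 lay on the same *Esrrb* sites, from 60.3 to 62.6 kb in WT (-log10 p 79.4), 60.4 to 61.9 kb in *Ezh2* KO (17.1) and 60.3 to 62.9 kb in *Ezh2* R685C (94.9). In *Ezh2* Y726D, 2 short peaks lay from 60.6 to 61.4 kb with 11.3 and 12.0, and in *Ezh1/2* dKO there was none. HA-tagged EZH1 in *Ezh1/2* dKO ESCs had a peak from 60.4 to 62.1 kb, and the HA list of the same cells without it had none. The second *Esrrb* sequence printed above was overlapped by H3K27me3, SUZ12 and HA-EZH1 peaks, and the first by none of them and by no H3K27ac peak. H3K27ac sat on the fourth start: a peak from 106.1 to 109.9 kb in *Ezh1/2* dKO (-log10 p 37.8), and peaks over the same site in *Ezh2* KO (45.2), *Ezh2* Y726D (53.3) and *Ezh2* R685C (81.3). No H3K27ac peak lay within 1 kb of the other 3 starts in any of the 4 lists. The counts are per gene and do not tell which *Esrrb* start the RNA came from.

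**Figure D4:**
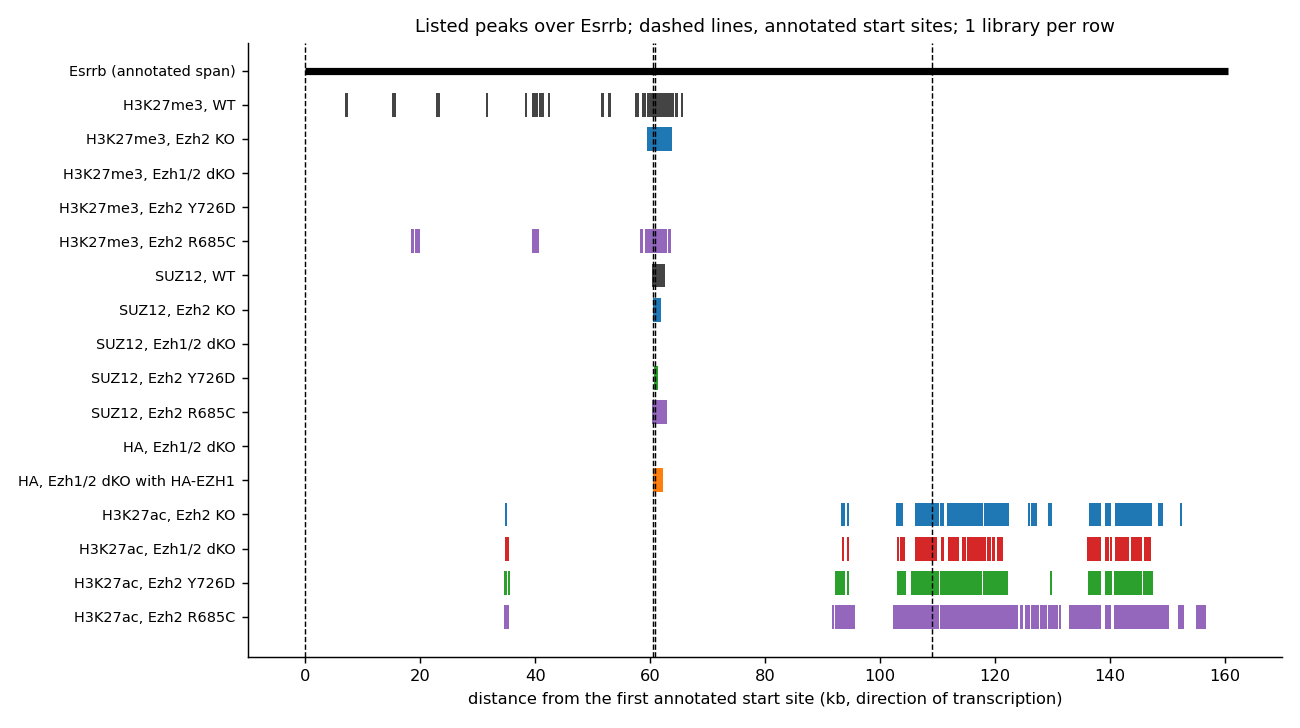
Listed peaks along *Esrrb* by mark and line (1 library per row), with distance from the first start site in kb and the 4 annotated start sites as dashed lines. H3K27me3, SUZ12 and HA-EZH1 meet at 60.5 and 60.8 kb, and H3K27ac covers the start at 109.0 kb in all 4 lists.

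SUZ12 within 5 kb of other members was weak and seen in single lists. Members with a SUZ12 peak numbered 2 in WT (14.2% of all genes), 1 in *Ezh2* KO (2.92%), 0 in *Ezh1/2* dKO (0.593%), 1 in *Ezh2* R685C (6.73%) and 2 in *Ezh2* Y726D (9.71%), and with an HA peak 1 with HA-EZH1 (10.2%) and 0 without (3.61%). *Esrrb* was 1 of them in each list that had any. *Prdm14* had 2 WT peaks of -log10 p 12.2 and 12.6 between 0.93 and 1.89 kb after its start, and *Klf5* had 1 in *Ezh2* Y726D from 0.36 to 0.60 kb (12.6). Farther from *Sox2*, WT had H3K27me3 at -8.51 to -7.62 kb from the start (-log10 p 20.3) and SUZ12 at -8.27 to -7.28 kb (19.1). A SUZ12 peak at -7.61 to -7.33 kb (10.3) lay there in *Ezh2* Y726D.

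H3K27me1 regions were absent from most members' gene bodies in the WT list. *Tfcp2l1* had 70.2% of its length covered, *Prdm14* 39.4% and *Esrrb* 18.7%, and the 7 others 0%, while the median of all tested genes was 39.1%. The 7 span 2457 to 14715 bp, *Prdm14* 13707 bp, *Tfcp2l1* 57223 bp and *Esrrb* 160512 bp. With 10 kb on each side of the gene, all 10 members had some coverage in WT. It ranged from 3.80% to 68.5% with a median of 20.5%, where the median of all tested genes was 37.1%. Within 5 kb of a start site, 6 of 10 members had a region in WT (80.3% of all genes), 2 of 8 in *Ezh2* KO (51.8%), 3 of 7 in *Ezh1/2* dKO (72.0%) and 3 of 4 in *Ezh2* Y726D (84.1%), the denominators being the members on chromosomes that each list holds. These broad lists start from a p of 0.1, and the list of cells without *Ezh1* and *Ezh2* still placed regions at most genes. They are given as positions of regions and not as levels of the mark.

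In *Ezh2* KO, *Esrrb* was the only member of the 8 listed with H3K27me1 regions in its body, covering 34.3% (percentile 85.7, median of all genes 0%). In *Ezh1/2* dKO the coverage was 10.8% at *Tfcp2l1*, 7.33% at *Prdm14*, 1.48% at *Klf5* and 0% at the other 4 listed (median 9.63%). In *Ezh2* Y726D it was 32.5% at *Pou5f1*, 28.7% at *Tfcp2l1*, 13.0% at *Klf5* and 6.46% at *Prdm14* (median 15.8%). *Tfcp2l1* was covered in WT, *Ezh1/2* dKO and *Ezh2* Y726D and not in *Ezh2* KO, while its RNA overlapped between WT and *Ezh2* KO.

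H3K27me2, which PRC2 places over wide regions, was listed within 5 kb of a start site of 6 of 8 members in WT (83.3% of all tested genes), 2 of 10 in *Ezh2* KO (42.3%), 8 of 10 in *Ezh1/2* dKO (83.2%) and 8 of 10 in the *Ezh2* Y726D list (85.1%). By the paper, H3K27me2 is lost in cells without PRC2 activity. Regions were nevertheless called for *Ezh1/2* dKO (478485) and for *Ezh2* Y726D (475687), more than for WT (270131). H3K27me2 regions are therefore also given as positions and not as levels of the mark. *Prdm14* had 59.6% of its body covered in WT (percentile 91.1 of all tested genes, median 16.8%). The *Ezh2* KO value was 7.50% (percentile 73.8, median 0%), with RNA 1.63-fold that of WT (limma adjusted p = 0.335). Coverage was lowest for *Ezh2* Y726D, 2.84% (percentile 20.4), whose *Prdm14* RNA was 1.01-fold that of WT. For *Ezh1/2* dKO, where this RNA was 1.78-fold that of WT, coverage was 23.9% (percentile 78.7). H3K27me1 covered 39.4% of the *Prdm14* body in WT, 0% in *Ezh2* KO and 6.46% to 7.33% in the remaining lists. The part of the marks in the RNA differences was not tested. *Esrrb* had 40.8% of its body covered by H3K27me2 in *Ezh2* KO (percentile 87.7) and 19.2% in WT.

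**Figure D5:**
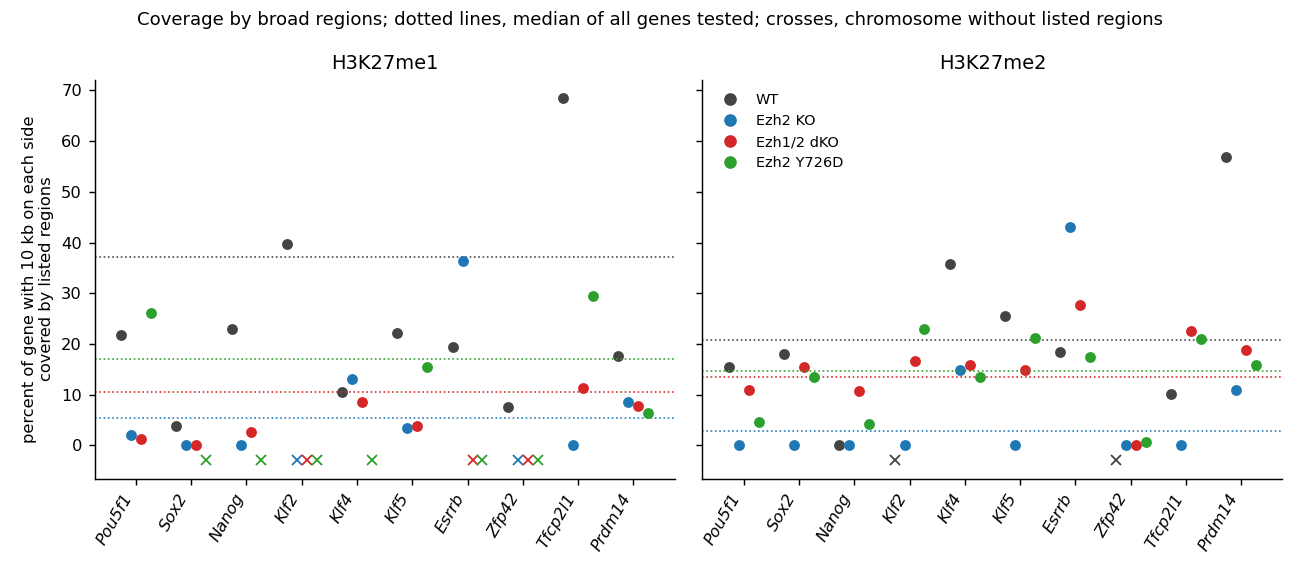
Percent of each member's locus, the gene with 10 kb on each side, covered by H3K27me1 (left) and H3K27me2 (right) regions in the 4 lines (points), with the median of all tested genes per line as dotted lines and crosses where a list does not hold the chromosome. *Esrrb* has the highest coverage of the members in *Ezh2* KO, with 36.3% for H3K27me1 and 43.0% for H3K27me2.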

How the data were processed

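RNA-seq (8 SMART-seq2 libraries, 4 lines) and peak lists of ChIP-seq and ATAC-seq (1 library per line and target) were used as deposited. For RNA, the authors aligned single-end reads to mm9 with TopHat, removed duplicates with Picard, counted without strand with HTSeq-count and normalized with DESeq2. Each deposited normalized count is a count signal scaled by the size factor of its library, and whole reads were recovered for 100% of values (tolerance 0.001). For chromatin, the authors aligned reads with Bowtie, removed duplicates and called peaks with MACS2. The deposited value used is the -log10 p of each region. The narrow lists hold p of at most 1e-10 and the broad lists (ATAC-seq, H3K27me1, H3K27me2) start from 0.1. The HA lists give positions only, the Drosophila spike-in does not enter the lists, and the depth behind them is unknown. The authors' comparisons of expression hold fold changes and p-values and were not used.

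The members and all gene lists were chosen with earlier results of these data known. Genes tested had a mean normalized count of at least 5. limma 3.58.1 (R 4.3.3, trend, log2 of the normalized count plus a pseudocount of 1, all 8 libraries in 1 fit) gave log2 fold changes on that scale, and Benjamini-Hochberg adjusted p-values over the 13872 genes. A call needed an adjusted p under 0.1 and at least a 2-fold change. Count tests on the recovered reads called 568 genes in *Ezh1/2* dKO against WT with edgeR 4.0.16 and 594 with DESeq2 1.42.0, where limma called 557. Same-numbered replicates deviated with correlations of -0.41 to 0.29 between lines and were not paired. The test was checked on simulated data.

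Peaks were assigned with Python 3.11.15, numpy 2.4.6 and pandas 2.3.3 to all annotated start sites (GENCODE, mm9), on which 16505 of 18055 genes were placed by name or identifier. *Tfcp2l1* is named *Tcfcp2l1* there. Figures were drawn with matplotlib 3.10.9. H3K27me1 in the 3 mutant lines, H3K27me2 in WT and H3K27me3 in *Ezh1/2* dKO list no region on some members' chromosomes, and those members were left out of the counts of that list. Named genes are the members, called genes of the fixed lists and the 3 genes most like *Prdm14*, the member with the largest absolute log2 fold change against WT. The H3K27ac data of WT, RING1B, H2AK119ub, the EZH2 rescue samples and the treated samples were not analysed here. Alternatives are given in the closing section.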

Additional observations from a re-analysis of the deposited data

Results flagged for a closer look

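*Dppa3* was flagged because its difference from WT had opposite directions in a pair of mutant lines and the difference between these lines itself passed the test. Its log2 fold change against WT was 1.32 in *Ezh1/2* dKO, higher in 2 of 2 libraries, and -2.66 in *Ezh2* Y726D, lower in 2 of 2, and *Ezh2* Y726D differed from *Ezh1/2* dKO by -3.98 (SE 0.33, limma adjusted p = 0.0015). Both lines lack *Ezh1*, and a genotype cannot be told apart from the cells it was isolated in.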

How the results depend on the processing

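The number of members called stayed at 0 in the 6 comparisons under the other settings, except that 1 (*Prdm14*) passed in *Ezh1/2* dKO against WT when no fold limit was set, and 0 to 1 passed in *Ezh2* Y726D against *Ezh1/2* dKO and against *Ezh2* KO when single libraries were left out. In the F test among lines 1 member passed, and 0 passed with no filter on low values and 0 to 1 when single libraries were left out. The adjusted p of *Prdm14* ranged over alternatives from 0.0239 to 0.419 in *Ezh1/2* dKO against WT, from 0.125 to 0.898 in *Ezh2* KO against WT, from 0.0391 to 0.676 in *Ezh2* Y726D against *Ezh1/2* dKO and from 0.0575 to 0.554 against *Ezh2* KO. DESeq2 brought *Ezh2* Y726D against *Ezh1/2* dKO under 0.1 (0.0588, log2 fold change -0.78). With the replicate number as a block the members called were 0 in each comparison and the adjusted p of *Prdm14* in *Ezh1/2* dKO against WT was 0.0833, and this pairing changed no call of a member. The median log2 fold change of the members moved with quantile normalization to 0.05 in *Ezh1/2* dKO and -0.066 in *Ezh2* Y726D against WT, -0.03 in *Ezh1/2* dKO against *Ezh2* KO and -0.182 in *Ezh2* Y726D against *Ezh1/2* dKO, and with upper-quartile rescaling to -0.027 in *Ezh1/2* dKO against WT, -0.074 in *Ezh1/2* dKO against *Ezh2* KO and -0.144 in *Ezh2* Y726D against *Ezh1/2* dKO. Leaving out single libraries it ranged from -0.022 to 0.1 in *Ezh2* KO, -0.127 to -0.086 in *Ezh1/2* dKO and -0.262 to -0.116 in *Ezh2* Y726D against WT, -0.167 to -0.088 in *Ezh1/2* dKO against *Ezh2* KO, and -0.154 to -0.058 and -0.248 to -0.206 in *Ezh2* Y726D against *Ezh1/2* dKO and *Ezh2* KO. The cause was not tested. Over all genes, calls in *Ezh2* KO against WT numbered 28 with only the 4 libraries compared and 144 with DESeq2 (56 in the main test), in *Ezh2* Y726D against WT 32 with only the 4 libraries, in *Ezh1/2* dKO against *Ezh2* KO 176 with quantile normalization and 1181 with only the 4 libraries, and in *Ezh2* Y726D against *Ezh1/2* dKO and *Ezh2* KO 150 and 228 with only the 4 libraries. Leaving out single libraries, where the lone library of a line is assumed to vary like the other lines, they ranged from 6 to 135 in *Ezh2* KO, 3 to 733 in *Ezh1/2* dKO and 156 to 546 in *Ezh2* Y726D against WT, from 53 to 665 in *Ezh1/2* dKO against *Ezh2* KO, and from 14 to 514 and 98 to 962 in *Ezh2* Y726D against *Ezh1/2* dKO and *Ezh2* KO. The lowest counts came without an *Ezh1/2* dKO replicate in the comparisons of that line and without *Ezh2* KO replicate 2 in *Ezh2* KO against WT and in *Ezh2* Y726D against *Ezh2* KO. Quantile normalization also moved the split of all calls into higher and lower from 503 and 54 to 290 and 129 in *Ezh1/2* dKO against WT, and from 26 and 207 to 50 and 168 in *Ezh2* Y726D against *Ezh1/2* dKO.

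For regions at start sites, 0 members had an ATAC-seq region of p at most 1e-10 in any of the 4 lines (0.0152% to 0.0456% of all genes), a limit chosen after seeing the data. With a window of 1 kb, H3K27me1 was at 0 members in WT (50.8% of all genes), 1 in *Ezh2* KO (26.4%) and 0 in *Ezh1/2* dKO (35.8%), and H3K27me2 at 3 in WT (53.6%), 3 in *Ezh1/2* dKO (47.8%), 5 in *Ezh2* Y726D (57.0%) and 1 in *Ezh2* KO (31.4%). With 10 kb, H3K27me1 was at 4 in *Ezh2* KO (64.0%) and 5 in *Ezh1/2* dKO (85.6%), and H3K27me3 at 2 in WT (20.7%). With stricter peaks (p of at most 1e-20 in the narrow lists, the stronger 50% of regions in the broad ones), H3K27me1 was at 1 in *Ezh2* KO (38.9%) and 1 in *Ezh1/2* dKO (48.7%), H3K27me2 at 3 in *Ezh2* Y726D (57.4%), and SUZ12 at 1 in WT (8.50%), 0 in *Ezh2* KO (1.49%) and 0 in *Ezh2* Y726D (1.36%). The median H3K27me1 coverage of the 4 members listed in *Ezh2* Y726D was 20.8% and became 0.0 with only the blocks of the broad calls. With 2 libraries per line and 1 library per list, small differences between lines were not detectable.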

Other observations

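Away from the start sites, a region upstream of the *Pou5f1* start carried SUZ12 in the 4 lists of lines that keep *Ezh1* or *Ezh2*: at -36.4 to -35.0 kb in WT (-log10 p 55.7), -36.1 to -35.7 kb in *Ezh2* KO (10.8) and -36.6 to -35.0 kb in *Ezh2* R685C (33.5), and as 2 short peaks in *Ezh2* Y726D (10.8 and 11.7). HA-EZH1 had a peak there at -36.3 to -35.1 kb, and the HA list of *Ezh1/2* dKO without it had none. H3K27me3 peaks lay on it in WT (-log10 p 19.0), *Ezh2* KO (201.1) and *Ezh2* R685C (223.6), and none in *Ezh2* Y726D. Both marks were outside the 5 kb around the start sites of *Pou5f1*, where all 4 H3K27ac lists had peaks.

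The 3 genes most like *Prdm14* had these levels: *Msc* was at 105.4 and 96.3 normalized counts in WT, 177.7 and 179.0 in *Ezh2* KO, 232.4 and 205.1 in *Ezh1/2* dKO, and 74.0 and 108.5 in *Ezh2* Y726D. *Mcfd2* ranged from 463.6 to 553.2 and *1700101E01Rik* from 2.7 to 14.5 over the 8 libraries.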
